A study of Mus musculus with 6 samples.

Results

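The genes described here are 10 regulators of the cell division cycle, chosen by name from the 55335 genes of the deposited tables. They are the cyclins Ccna2, Ccnb1, Ccnb2, Ccne1, Ccne2 and Ccnd3, the cyclin-dependent kinases Cdk1 and Cdk2, and the mitotic kinases Plk1 and Aurka. Each of the 10 had 1 row in every table, and all 10 passed the filter on low values that left 11893 genes to test. RNA was measured in 6 libraries of mouse 4-cell embryos made by Smart-Seq2, which copies polyadenylated RNA into full-length cDNA from an oligo-dT primer and amplifies it. There were 2 groups of 3 libraries, control embryos (Con) and embryos that received DRB, a nucleoside analogue that blocks elongation by RNA polymerase II. In the DRB group, zygotes were placed in KSOM medium with 20 µM DRB from 6 h after fertilization, kept in it for 20 h, washed, and cultured without it for another 26 h to the 4-cell stage. The labels give for Con no vehicle and no culture times, and for neither group the mouse strain or the number of embryos pooled in a library. No genotype is recorded for either group. The values are FPKM, in which fragments are divided by the length of the transcript and by the depth of the library. This scaling does not remove differences between genes in capture by the oligo-dT primer or in amplification. Comparisons of levels between genes below carry that limit.

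Cyclins are the regulatory subunits of cyclin-dependent kinases (CDKs), and their periodic synthesis and destruction drives the cell through DNA replication and mitosis. Cyclin D and cyclin E act before and at the start of replication, cyclin A during replication and early mitosis, and cyclin B with CDK1 at entry into mitosis. Polo-like kinase 1 and Aurora A promote mitotic entry and build the spindle. In the mouse, the first cleavages run first on RNA and protein stored in the egg and then, from the 2-cell stage onward, on RNA transcribed by the embryo.

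The comparison asks how these transcripts stand in 4-cell embryos after transcription was blocked from the zygote and then released. None of the 10 genes differed between DRB and Con at a Benjamini-Hochberg adjusted limma p below 0.05, the threshold used for every call. Over all 11893 genes tested 295 were called, or 2.48%, with 1.53% higher and 0.95% lower. The 10 genes spanned a wide range of levels, from Ccnb1 with a mean of 2093 ± 698.2 FPKM in Con and 1789 ± 288.8 FPKM in DRB (SD, n = 3) to Ccnd3 and Ccne2, at or below 20.6 FPKM in every library. The groups did not overlap for 3 genes: Ccne2 and Cdk2, which were higher in all 3 DRB libraries, and Ccnd3, which was lower in all 3. These 3 of 10 genes without overlap are to be read against 23.8% of all tested genes, and the 2 of 10 with an unadjusted limma p below 0.05, both higher, against 18.1% of all tested genes and 7.53% of them higher.

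The promoters are printed because transcription was the step that the treatment blocked, and because Aurka, Ccnb2, Cdk1 and Plk1 share letters there that most promoters lack. RefSeq promoters (GRCm38.p6, 250 bases before to 50 after the start) were found for 8 of the 10 genes. Each was searched on both strands for TTTGAA, a core of the cell cycle genes homology region (CHR) bound by the DREAM and B-MYB complexes, and for CCAAT, the box bound by NF-Y. The search also covered the E2F letters TTTGGCG and TTTCGCG. Other forms of the CHR and of the E2F letters were not searched, so a promoter without a match may still hold such an element. Aurka, Ccnb2, Cdk1 and Plk1 held both TTTGAA and CCAAT, a pair found in 7.0% of the 32851 promoters of the table. TTTGAA alone was in 17.9% of all promoters and CCAAT in 37.4%. Ccnb1, Cdk2 and 1 of the 2 Ccnd3 promoters held CCAAT without TTTGAA, and Ccne1 held none of the letters searched. A match to these E2F letters stood in the Cdk1 promoter only, against 2.4% of all promoters. The 4 promoters with both sets of letters, and that of Cdk2 beside them, read as follows 5′ to 3′, with the matches in capitals; such a match is a description of the letters and not a bound site.
Ccnb2, chr9:70421505-70421804, minus strand: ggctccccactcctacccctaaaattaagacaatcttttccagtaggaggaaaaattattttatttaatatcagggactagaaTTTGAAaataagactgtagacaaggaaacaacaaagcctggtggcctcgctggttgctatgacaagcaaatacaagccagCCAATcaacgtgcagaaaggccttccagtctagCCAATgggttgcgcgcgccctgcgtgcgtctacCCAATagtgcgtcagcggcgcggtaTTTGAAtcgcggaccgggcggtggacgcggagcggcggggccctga
Cdk1, chr10:69352863-69353162, minus strand: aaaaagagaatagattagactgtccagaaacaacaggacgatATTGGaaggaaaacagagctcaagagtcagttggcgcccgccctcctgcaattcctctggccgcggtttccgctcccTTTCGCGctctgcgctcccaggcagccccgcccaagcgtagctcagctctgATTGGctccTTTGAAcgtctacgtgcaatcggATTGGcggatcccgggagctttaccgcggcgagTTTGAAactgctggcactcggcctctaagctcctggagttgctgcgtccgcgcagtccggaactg
Aurka, chr2:172370521-172370820, minus strand: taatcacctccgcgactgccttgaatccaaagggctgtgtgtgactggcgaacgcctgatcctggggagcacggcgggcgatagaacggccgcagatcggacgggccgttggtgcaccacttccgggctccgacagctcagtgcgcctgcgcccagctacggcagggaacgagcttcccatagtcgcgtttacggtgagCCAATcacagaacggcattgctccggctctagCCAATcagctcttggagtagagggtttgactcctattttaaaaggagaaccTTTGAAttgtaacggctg
Plk1, chr7:122159185-122159484, plus strand: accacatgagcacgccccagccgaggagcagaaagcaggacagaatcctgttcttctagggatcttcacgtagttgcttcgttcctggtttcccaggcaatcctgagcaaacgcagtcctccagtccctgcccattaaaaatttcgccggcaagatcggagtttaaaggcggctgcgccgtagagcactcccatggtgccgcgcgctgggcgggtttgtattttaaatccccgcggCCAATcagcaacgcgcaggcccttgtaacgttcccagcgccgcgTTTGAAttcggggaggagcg
Cdk2, chr10:128705002-128705301, minus strand: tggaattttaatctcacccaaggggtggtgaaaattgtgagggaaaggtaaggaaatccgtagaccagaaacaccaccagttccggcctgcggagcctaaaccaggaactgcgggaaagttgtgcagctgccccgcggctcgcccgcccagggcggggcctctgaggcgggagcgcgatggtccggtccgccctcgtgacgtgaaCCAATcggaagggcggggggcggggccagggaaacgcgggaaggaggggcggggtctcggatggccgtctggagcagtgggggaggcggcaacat

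Cyclin B1, the main partner of CDK1 at mitotic entry, was the most abundant of the 10 transcripts. Ccnb1 (ENSMUSG00000041431.16; GRCm38 chromosome 13, 100778650 to 100786570, minus strand, 9 exons) stood at 2699.7, 2251 and 1330.1 FPKM in Con replicates 1 to 3 and at 1644, 2121 and 1601 FPKM in DRB replicates 1 to 3. The groups overlapped, with both extremes, the highest and the lowest, in Con. The log2 fold change, DRB over Con of FPKM + 1, was -0.18 with a 95% interval of -0.85 to 0.49 (limma adjusted p 0.825). Ccnb1 made up 54.4% to 67.0% of the summed FPKM of the 10 genes and lay at the 98.9th percentile of tested genes or above in every library. Of the windows of 100 bases in its main transcript, 28.6% also occur in transcripts of its pseudogenes Ccnb1-ps, Gm12856, Gm8416 and Gm4870, so part of its reads cannot be assigned with certainty. The highest of these, Ccnb1-ps, stood at 21.95 to 42.5 FPKM.

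Cyclin B2, the second cyclin B, stood far lower. Ccnb2 (ENSMUSG00000032218.7; GRCm38 chromosome 9, 70407692 to 70421547, minus strand, 9 exons) was at 32.3, 31.1 and 25.6 FPKM in the Con libraries and at 19.7, 24.4 and 27.2 FPKM in the DRB libraries. Con replicate 3 lay below DRB replicate 3, so the groups overlapped, and the log2 fold change was -0.31 (95% interval -0.98 to 0.35, limma adjusted p 0.647). Within a library Ccnb1 exceeded Ccnb2 by 83.5, 72.3 and 51.9 times in Con and by 83.5, 87.1 and 58.8 times in DRB. This ratio, which does not depend on how a library was scaled, did not separate the groups (exact two-sided permutation p 0.6).

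Cyclin A2, the cyclin A of somatic cells and embryos, was the most even of the 10 genes in Con. Ccna2 (ENSMUSG00000027715.9; GRCm38 chromosome 3, 36564865 to 36572150, minus strand, 8 exons) stood at 448.6, 527.2 and 503.04 FPKM in Con and at 695.2, 499.9 and 477.01 FPKM in DRB. DRB replicate 1 lay above the rest, while the other 5 libraries lay within 448.6 to 527.2 FPKM. For this gene the log2 fold change was 0.16 (95% interval -0.40 to 0.71, limma adjusted p 0.804), and it was -0.010 without DRB replicate 1. The last exons of Ccna2 overlap Exosc9 on the opposite strand, which supplies 14.4% of the windows of its main transcript; Exosc9 stood at 27.4 to 59.1 FPKM.

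Cdk1 (ENSMUSG00000019942.13; GRCm38 chromosome 10, 69335146 to 69352938, minus strand, 8 exons) encodes the kinase that cyclins A and B drive into mitosis. Its levels were 480.4, 281.05 and 282.3 FPKM in Con and 273.9, 302.03 and 354.4 FPKM in DRB. Con replicate 1 was the highest of the 6 libraries, and the DRB libraries surrounded the other two Con libraries. That made a log2 fold change of -0.13 (95% interval -0.75 to 0.50, limma adjusted p 0.869); it was 0.13 without Con replicate 1 and 0.026 with mitochondrial genes left out. Ccnb1 exceeded Cdk1 by 4.71 to 8.01 times in Con and by 4.52 to 7.02 times in DRB (exact permutation p 0.9).

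Cdk2 (ENSMUSG00000025358.16; GRCm38 chromosome 10, 128697939 to 128705031, minus strand, 7 exons), the kinase partner of cyclins E and A, was lower than Cdk1 in every library. It stood at 24.9, 28.7 and 21.3 FPKM in Con and at 45.7, 38.4 and 37.5 FPKM in DRB. All 3 DRB libraries were above all 3 Con libraries, as for 9.85% of tested genes. The mean was 24.9 ± 3.67 FPKM in Con and 40.5 ± 4.53 FPKM in DRB (SD, n = 3). On the log2 scale the difference was 0.68 ± 0.29 (SE), with a 95% interval of 0.039 to 1.33, an unadjusted limma p of 0.0397 and an adjusted p of 0.25. The ratio of Cdk1 to Cdk2 within a library was 19.3, 9.81 and 13.2 in Con and 5.99, 7.87 and 9.46 in DRB, so it separated the groups, with Con replicate 2 and DRB replicate 3 closest to each other. By exact permutation over the libraries (two-sided) that ratio had a p of 0.1, which is as low as 3 against 3 can go, and 0.25 after adjustment over the 5 ratios tested.

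**Figure D1:**
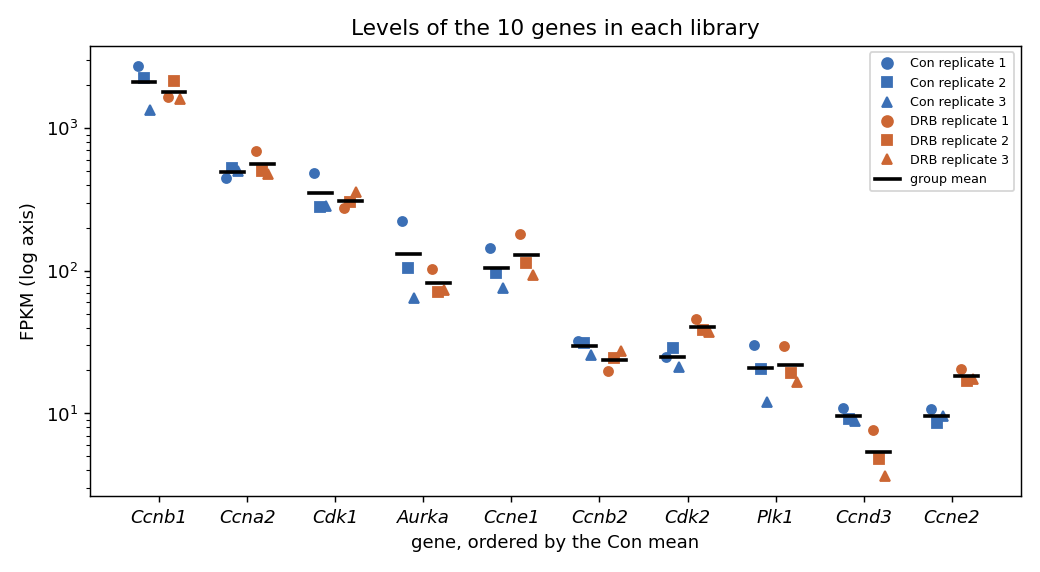
FPKM of the 10 genes on a log axis, in order of the Con mean, with 1 point per library (blue Con, orange DRB, symbol by replicate) and a bar for the group mean. The 3 DRB points lie above the 3 Con points for Cdk2 and Ccne2 and below them for Ccnd3, and the groups overlap for the other 7 genes.

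Cyclins E1 and E2 bind CDK2 at the start of replication, and Ccne1 was the more abundant of the pair. Ccne1 (ENSMUSG00000002068.16; GRCm38 chromosome 7, 38097984 to 38107534, minus strand, 12 exons) stood at 143.3, 96.3 and 76.03 FPKM in Con and at 180.7, 113.3 and 93.5 FPKM in DRB. Replicate 1 was the highest of each group and the groups overlapped, with a log2 fold change of 0.29 (95% interval -0.45 to 1.02, limma adjusted p 0.719). That value moved with single libraries, to 0.018 without DRB replicate 1, 0.080 without Con replicate 3 and 0.53 without Con replicate 1. Of the 10 genes Ccne2 (ENSMUSG00000028212.16; GRCm38 chromosome 4, 11191351 to 11204779, plus strand, 12 exons) had the smallest unadjusted p, 0.0253. Its levels were 10.8, 8.53 and 9.61 FPKM in Con and 20.6, 16.9 and 17.4 FPKM in DRB, without overlap and with little spread in either group. The mean went from 9.65 ± 1.14 to 18.3 ± 2.00 FPKM (SD, n = 3). The difference on the log2 scale was 0.86 ± 0.33 (SE), with a 95% interval of 0.13 to 1.59 and an adjusted p of 0.203 in limma.

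The 3′ end of Ccne2 overlaps Ints8, a subunit of the Integrator complex, on the opposite strand, and 14.3% of the windows of its main transcript occur in Ints8 transcripts. No source used here says that strand was kept in counting, so reads in the overlap cannot be told apart. Ints8 stood at 41.4, 55.7 and 74.6 FPKM in Con and at 121.7, 57.6 and 74.1 FPKM in DRB, with overlap between the groups. The share of Ints8 reads in the Ccne2 values was not tested. The ratio of Ccne1 to Ccne2 was 13.3, 11.3 and 7.91 in Con and 8.79, 6.71 and 5.39 in DRB, so Con replicate 3 fell among the DRB libraries (exact permutation p 0.2).

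Cyclin D3, one of the cyclin D proteins that link growth signals to CDK4 and CDK6, was the lowest of the 10 genes in DRB. Ccnd3 (ENSMUSG00000034165.16; GRCm38 chromosome 17, 47505051 to 47599691, plus strand, 7 exons) stood at 10.96, 9.19 and 8.86 FPKM in Con and at 7.68, 4.78 and 3.66 FPKM in DRB. All 3 DRB libraries were below all 3 Con libraries, as for 13.9% of tested genes, and the spread was wider in DRB. The mean was 9.67 ± 1.13 FPKM in Con and 5.37 ± 2.07 FPKM in DRB (SD, n = 3), and on the log2 scale the difference was -0.79 ± 0.40 (SE; limma adjusted p 0.322). The lowest value corresponds to roughly 177 fragments of amplified cDNA, which are not independent molecules. Ccnd3 is the longest of the 10 genes in the genome, 94.6 kb against 7.1 to 17.8 kb for the others. A further Ccnd3 promoter lies near the end of the gene, at 47593217 to 47593516. Which start was used was not tested. The end of Ccnd3 overlaps Bysl on the opposite strand, which shares 12.6% of the Ccnd3 windows. Bysl stood at 22.6, 19.2 and 13.9 FPKM in Con and 22.01, 10.4 and 10.4 FPKM in DRB. The part of Bysl reads in the Ccnd3 values was not tested.

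Polo-like kinase 1, which acts at mitotic entry, centrosome maturation and exit from mitosis, varied more among the libraries of a group than between groups. Plk1 (ENSMUSG00000030867.7; GRCm38 chromosome 7, 122159439 to 122169873, plus strand, 10 exons) stood at 30.3, 20.3 and 12.03 FPKM in Con and at 29.7, 19.3 and 16.7 FPKM in DRB. Replicate 1 was the highest and replicate 3 the lowest of each group, and the means were 20.9 ± 9.12 and 21.9 ± 6.88 FPKM (SD, n = 3). Its log2 fold change was 0.11 (95% interval -0.76 to 0.99, limma adjusted p 0.917), and its sign turned without Con replicate 3 (-0.21) or without DRB replicate 1 (-0.12).

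Aurora A, which matures centrosomes and activates PLK1 with its cofactor Bora, had the widest spread in Con. Aurka (ENSMUSG00000027496.15; GRCm38 chromosome 2, 172356190 to 172370535, minus strand, 9 exons) was at 223.5, 104.6 and 64.4 FPKM in Con and at 102.2, 71.4 and 73.3 FPKM in DRB. The Con libraries spanned a range of 3.47 times that enclosed all 3 DRB libraries. Its log2 fold change was -0.49 (95% interval -1.39 to 0.41, limma adjusted p 0.58), and it was -0.016 without Con replicate 1 and -0.91 without Con replicate 3. Relative to Plk1 in the same library, Aurka stood at 7.39, 5.14 and 5.35 times in Con and at 3.44, 3.70 and 4.39 times in DRB. The ratio separated the groups although neither gene did, with a p of 0.1 by exact permutation (two-sided), again as low as the design can go, and 0.25 after adjustment over the 5 ratios.

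**Figure D2:**
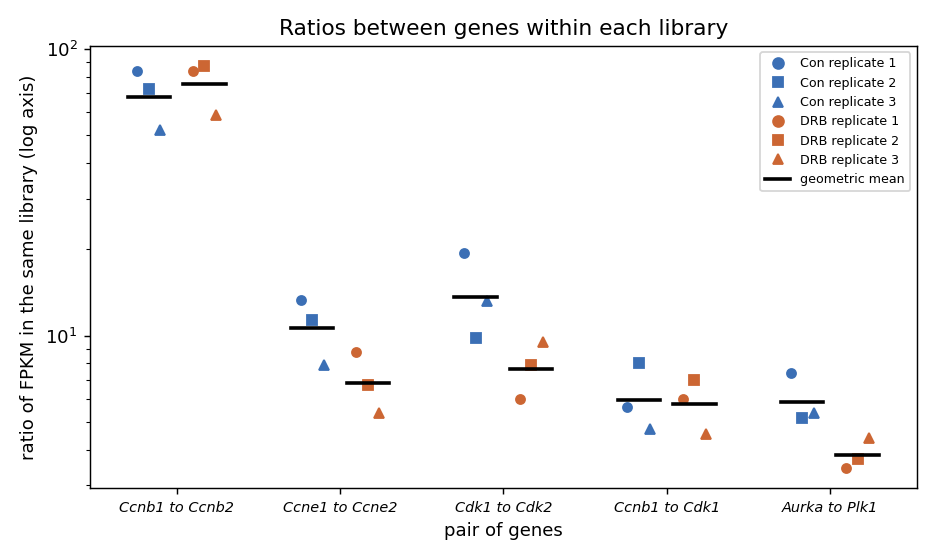
Ratio of the FPKM of 2 genes in the same library, on a log axis, for the 5 pairs compared, with 1 point per library (blue Con, orange DRB) and a bar for the geometric mean. The groups do not overlap for Cdk1 to Cdk2 and for Aurka to Plk1, and overlap for the other 3 pairs.

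Several of the 10 genes were high or low in the same libraries. Con replicate 1 was the highest Con library for 8 of the 10 genes, against 40.5% of tested genes, and Con replicate 3 the lowest for 7, against 37.5%. In the DRB group, replicate 1 was highest for 7 genes, against 45.3% of tested genes. The 2 exceptions in Con were Ccna2 and Cdk2, which were highest in replicate 2. Con replicate 1 also had the most genes above 0 FPKM, 22102 against 18485 to 19895 elsewhere, and the smallest mitochondrial share of all FPKM, 12.2%. The part of these library differences in the members' values was not tested beyond leaving out each library in turn.

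The order of the levels was nearly the same in the groups. In Con, Ccnb1 was followed by Ccna2, Cdk1, Aurka, Ccne1, Ccnb2, Cdk2, Plk1, Ccnd3 and Ccne2. Ccnb1 and Ccna2 did not overlap in Con, nor did Cdk1 and Aurka, Ccne1 and Ccnb2, or Plk1 and Ccnd3; the other neighbours in that order overlapped. In DRB the order had Ccne1 above Aurka, Cdk2 above Ccnb2 and Ccne2 above Ccnd3. Of these 3 exchanges 2 held in every DRB library without overlap, that of Cdk2 over Ccnb2, by a ratio of means of 1.71, and that of Ccne2 over Ccnd3, by a ratio of 3.40. The ranges of Ccne1 and Aurka overlapped in DRB, although Ccne1 was higher in all 3 libraries.

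Across the 10 genes the log2 fold changes had a median of -0.0058, beside -0.093 for all tested genes. Of the 10, 5 were positive, beside 5234 of all 11893 tested genes. For 7 of the 10 the size was below 0.5. The intervals were wide beside these sizes: that of Ccna2, the narrowest, runs from -0.40 to 0.71, and that of Aurka, the widest, from -1.39 to 0.41.

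**Figure D3:**
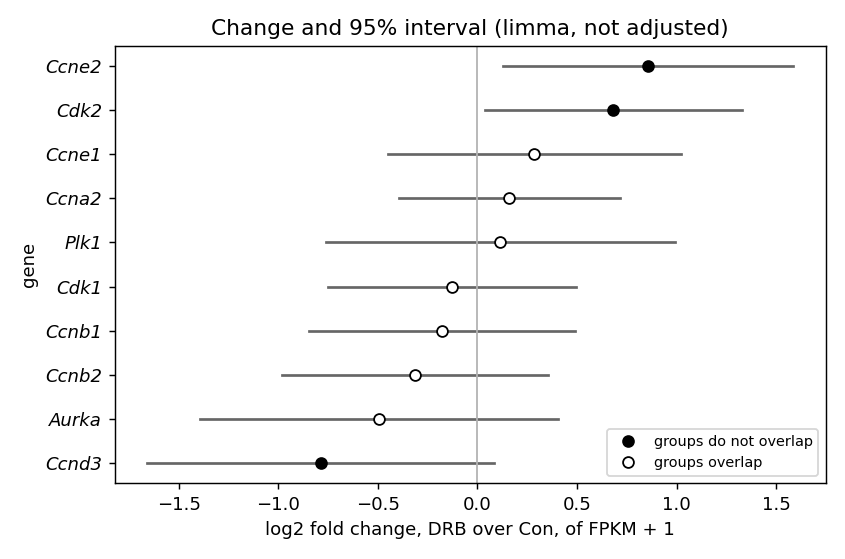
Change of each gene on the log2 scale (DRB over Con, FPKM + 1) with its 95% interval from limma, not adjusted for the number of genes; filled points mark genes whose groups do not overlap. The intervals of Ccne2 and Cdk2 lie above 0, from 0.13 and 0.039, and the other 8 include 0.

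By the rule for naming genes of like pattern, Ccne2 was set against the 4477 tested genes whose mean over the libraries reached 10 FPKM. The 4 closest over the 6 libraries were Atad5, Taf1, Csrnp2 and Rab1a, with a root mean square difference of centred log2 values of 0.086, 0.094, 0.102 and 0.107. Atad5, which unloads the replication clamp PCNA, stood at 7.97, 6.48 and 7.62 FPKM in Con and 14.7, 14.3 and 12.2 FPKM in DRB. Taf1, the largest subunit of TFIID, stood at 16.6, 13.7 and 16.9 FPKM in Con and 36.03, 28.8 and 25.6 FPKM in DRB. None of the 4 passed the limma test over all genes (adjusted p 0.152 to 0.242).

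The wider network of cell-cycle regulators was described with 98 further genes in 10 lists, of which 82 were tested. None of the 82 was called by limma in either direction, against 2.48% of all tested genes. At an unadjusted p below 0.05, 4 of the 82 were higher and 5 lower, against 7.53% and 10.5% of all tested genes. The groups did not overlap for 6 higher and 16 lower, against 9.85% and 13.9%. The median log2 fold change of the 82 was -0.13, beside -0.093 for all tested genes. Of the 82, 34 were positive, beside 5234 of all 11893 tested genes. The 2 genes with the smallest p of each list are given with their values below.

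Among the partners and relatives of the Aurora kinases, 2 of 7 tested genes were positive, with a median of -0.23. In all 3 DRB libraries 3 of the 7 were lower and 1, Tpx2, was higher, against 13.9% and 9.85% of all tested genes. Both other Aurora kinases were among the lower ones. Aurkb, the kinase of the chromosomal passenger complex, stood at 33.6, 34.4 and 25.0 FPKM in Con and at 22.1, 10.6 and 13.5 FPKM in DRB (limma adjusted p 0.164). Aurkc, its counterpart in germ cells and early embryos, stood at 92.7, 52.6 and 28.8 FPKM in Con and at 16.0, 23.8 and 24.4 FPKM in DRB (limma adjusted p 0.135). Like Aurka, Aurkc was highest in Con replicate 1.

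Of the other Polo-like and mitotic kinases 7 were tested, with a median of 0.15. Plk2, a kinase of centriole duplication and stress responses, stood at 7.85, 4.05 and 8.64 FPKM in Con and at 31.6, 15.2 and 27.5 FPKM in DRB. Its log2 fold change of 1.71 was the highest in the lists, with a limma adjusted p of 0.0588. Plk3 was at 1.13 ± 0.488 and 3.09 ± 0.785 FPKM (SD, n = 3; limma adjusted p 0.248). Plk4, the kinase that starts centriole formation, had a log2 fold change of -0.022.

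Cyclins are destroyed by the anaphase-promoting complex (APC/C), of which 18 of 20 listed genes were tested. Of these 6 were positive, with a median of -0.29, and 1 was higher and 5 lower in all DRB libraries, against 9.85% and 13.9% of all tested genes. Anapc1, the scaffold subunit, stood at 9.33 ± 1.32 FPKM in Con against 20.9 ± 4.17 FPKM in DRB (SD, n = 3; limma adjusted p 0.127). Anapc16, a small subunit, stood at 157.7 ± 28.9 and 86.5 ± 10.6 FPKM (SD, n = 3; limma adjusted p 0.123). In the list for turnover of cyclin E all 6 tested genes were positive, beside 5234 of all 11893 tested genes. The median was 0.18 and the smallest value 0.017. Only Cul3 was higher in all DRB libraries and 0 were lower, against 9.85% and 13.9% of all tested genes. Cul3, a ubiquitin ligase scaffold, stood at 237.1 ± 70.03 and 461.2 ± 95.05 FPKM (SD, n = 3; limma adjusted p 0.107), and Fbxw7, which recognises cyclin E, at 1.61 ± 1.26 and 2.01 ± 0.727 FPKM.

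CDK1 and CDK2 are held inactive by Wee1-type kinases and released by CDC25 phosphatases. That list holds both kinds and also checkpoint kinases. All 8 of its tested genes were negative, beside 6659 of all 11893 tested genes, with a median of -0.44. The groups overlapped for each of the 8, while they did not for 23.8% of all tested genes. Cdc25a stood at 18.1 ± 4.20 FPKM in Con against 12.06 ± 2.72 FPKM in DRB (SD, n = 3; limma adjusted p 0.457), and Chek2, a checkpoint kinase, at 57.02 ± 15.4 and 40.98 ± 6.23 FPKM (limma adjusted p 0.491). Of 7 CDK inhibitors 3 passed the filter: Cdkn1c and the 2 named by the rule. Cdkn1a, or p21, had a log2 fold change of 0.27 and Cdkn2d, or p19, of -0.27 (limma adjusted p 0.744 and 0.828).

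Of the further cyclins 6 of 8 were tested, and 0 had groups without overlap, against 23.8% of all tested genes. For Ccng1 the log2 fold change was -0.71 (limma adjusted p 0.439) and for Ccng2 0.88 (0.506), the second with a range of 0 to 3.64 FPKM in Con. Among other CDKs, the CDK-activating kinase and the Cks genes, 5 of 6 were tested. Of these 2 were lower and 0 higher in all DRB libraries, against 13.9% and 9.85% of all tested genes. Cdk4, the partner of cyclin D and 1 of the lower genes, stood at 64.8, 51.4 and 51.6 FPKM in Con. In DRB it stood at 41.6, 36.6 and 29.9 FPKM (limma adjusted p 0.279). Cks2, a small subunit of CDK complexes, stood at 4249 ± 666.5 and 6165 ± 2136 FPKM (SD, n = 3; limma adjusted p 0.478), above Ccnb1. In the Greatwall and PP2A-B55 list, whose products keep CDK1 substrates phosphorylated or remove the phosphate, 3 of 7 were positive. For Ppp2r1a the log2 fold change was -0.51 (limma adjusted p 0.434) and for Ppp2r2a 0.31 (0.61).

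The E2F, pocket protein and DREAM genes, whose products bind E2F and CHR letters in promoters, had 15 tested members with a median of -0.18. Of these 6 were positive. Lin37, a DREAM subunit, stood at 11.1, 15.9 and 13.2 FPKM in Con and at 0.15, 7.02 and 8.22 FPKM in DRB (limma adjusted p 0.224), with the lowest value in DRB replicate 1. Lin52, of the same complex, stood at 51.2 ± 5.34 and 34.01 ± 6.37 FPKM (SD, n = 3; limma adjusted p 0.312). Lin54, the subunit that reads TTTGAA, had a log2 fold change of 0.68 with overlap between the groups.

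**Figure D4:**
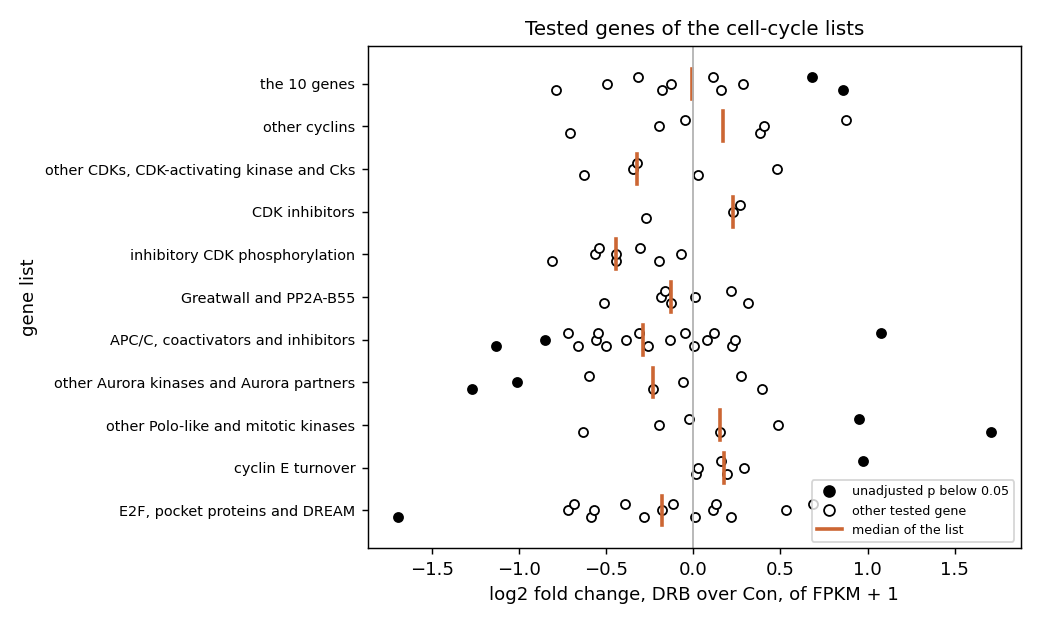
Change on the log2 scale (DRB over Con, FPKM + 1) of every tested gene in the 10 named genes and in the 10 other cell-cycle lists, with filled points at an unadjusted limma p below 0.05 and a line at each list's median. Medians lie between -0.44 and 0.23, and none of the genes passed the adjusted test.

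The libraries were of like depth, 22300000 to 24800000 fragments by the steps of the low values. Over all tested genes, log2 values of pairs of libraries correlated at 0.869 (Con replicate 1 with DRB replicate 1) to 0.944 (Con replicates 2 and 3), by Pearson's r across genes. In bulk libraries, fewer cells of a kind and less RNA per cell cannot be told apart. Markers of the egg and early embryo were present, with 10 of 10 tested and a summed level of 13608 to 24905 FPKM, nearly all from Dppa3. The 12 markers of the 2-cell stage summed to 31.5 to 85.3 FPKM in Con and 181.0 to 299.0 FPKM in DRB. Of the 9 tested 4 were called higher (Zfp352, Tdpoz1, Spz1 and Arg2), against 1.53% of all tested genes. The list was chosen with earlier results of these data known, so this share is a description and not a test. Zscan4c, Zscan4d, Zscan4f, Tcstv1 and Tcstv3 were not called and overlapped between the groups. Duxf3, the activator of 2-cell genes, was at most 0.41 FPKM. Mitochondrial genes took 12.2% to 19.96% of FPKM in Con and 23.9% to 26.4% in DRB. The part of either in the values of Ccne2, Cdk2 and Ccnd3 was not tested, apart from the fit without mitochondrial genes, in which their log2 fold changes were 1.01, 0.84 and -0.67. Markers of other cells were in part present. The 8 cumulus markers summed to 213.1 to 387.3 FPKM in Con and 144.3 to 275.8 FPKM in DRB, of which Gja1 gave 120.95 to 363.7 FPKM and Amhr2 17.9 to 28.2 FPKM, while Has2, Ptx3, Fshr and Cyp19a1 were at 0 in all libraries. The 6 blood markers summed to 74.3 to 113.97 FPKM in Con and 47.02 to 87.3 FPKM in DRB, mostly from the globins Hba-a1 (24.8 to 68.9 FPKM), Hba-a2 (13.5 to 38.3 FPKM) and Hbb-bs (mean 6.15 ± 1.18 FPKM in Con and 12.2 ± 5.82 FPKM in DRB, SD, n = 3), with Ptprc and Alas2 at most at 0.21 FPKM. The 8 sperm markers summed to 12.7 to 22.7 FPKM in Con and 12.3 to 24.2 FPKM in DRB, with Ldhc at 6.65 to 18.4 FPKM, Odf2 at 3.61 to 8.12 FPKM and above Con in all 3 DRB libraries, and Prm1, Prm2, Tnp1 and Tnp2 at most at 1.08 FPKM. The 7 markers of trophectoderm and blastocyst summed to 28.8 to 36.5 FPKM in Con and 29.7 to 42.7 FPKM in DRB, nearly all from Tfap2c (28.4 to 42.0 FPKM), with Cdx2 at 0 in all libraries. None of the 9 tested genes of these 4 lists was called by limma, against 2.48% of all tested genes. At an unadjusted limma p below 0.05 there were 0, against 18.1%. Their part in the members' values was not tested.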

How the data were processed

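The submitters' processing notes name cutadapt 1.16, STAR and the mm10 build for the 6 Smart-Seq2 libraries. Which tool computed the expression values, and with which annotation, was not given in the sources used here. Per the file headers the authors deposited FPKM, in 1 table for each library. Depth was estimated from the steps of 1 fragment in low values of genes with 1 transcript, allowing for an effective length; 77.3% to 87.2% of those values lay within 0.15 of a whole number. Counts were not rebuilt for the tests.

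Genes reaching 1 FPKM in 3 or more libraries entered the test, which was made by limma 3.58.1 (R 4.3.3) on log2(FPKM + 1) values (mean-variance trend, group as the single term, two-sided, Benjamini-Hochberg over all 11893 genes, called below 0.05). A fold change on this scale understates that of low genes. Ratios were tested by exact permutation over libraries. Whether replicates came from separate cultures is not stated, so the p-values cover only the spread among these samples, which may be technical. The code was tested on simulated data. Coordinates, transcripts and shared windows of 100 bases come from GENCODE M21 (GRCm38, the assembly of mm10), in which all 10 genes matched by ID, and promoters from RefSeq. The main transcript is the principal coding one.

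The members and lists were chosen with earlier results of these data known. All 10 members are named; of each other list the called genes, or else the 2 with the smallest p, are named, and outside this rule stand Plk4, Lin54, Cdkn1c, the overlapping genes and markers, which were named after their values were seen. The 4 genes most like the member with the smallest p were taken by the root mean square difference of centred log2 values, leaving out bare model names. Alternatives were a pseudocount of 0.1, no filter, a minimum of 5 FPKM, a block for the replicate number, each library left out in turn, median-of-ratios scaling, leaving out mitochondrial genes, no mean-variance trend and a threshold of 0.01.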

Additional observations from a re-analysis of the deposited data

How the results depend on the processing

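None of the 10 genes was called in either direction under any of the 14 alternatives. Signs held for Ccnb2, Ccne1, Ccne2, Ccnd3, Cdk2 and Aurka in all 13 refits, and the log2 fold change ranged from 0.77 to 1.01 for Ccne2 (limma adjusted p 0.139 to 0.451), 0.58 to 0.84 for Cdk2 (0.167 to 0.462) and -1.03 to -0.59 for Ccnd3 (0.207 to 0.553), and from -0.42 to -0.17 for Ccnb2, 0.018 to 0.53 for Ccne1 and -0.91 to -0.016 for Aurka. It reversed for Ccnb1 without Con replicate 1 (0.036; range without 1 library -0.47 to 0.036), Cdk1 without Con replicate 1 (0.13; -0.26 to 0.13) or mitochondrial genes (0.026), Ccna2 without DRB replicate 1 (-0.010; -0.010 to 0.26) and Plk1 without Con replicate 3 (-0.21; -0.21 to 0.42) or DRB replicate 1 (-0.12); the cause was not tested. Leaving out mitochondrial genes shifted the median of all genes by 0.125 on the log2 scale, so relative to that shift Cdk1 did not turn.

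Without 1 library the log2 difference of the ratios, DRB minus Con, ranged from -1.07 to -0.58 for Cdk1 to Cdk2 and from -0.72 to -0.46 for Aurka to Plk1. It ranged from -0.84 to -0.46 for Ccne1 to Ccne2, from -0.045 (without Con replicate 3) to 0.33 for Ccnb1 to Ccnb2 and from -0.22 to 0.16 (without Con replicate 2; 0.12 without DRB replicate 3) for Ccnb1 to Cdk1.

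Over all genes 295 were called, 182 higher and 113 lower. A pseudocount of 0.1 gave 164, 113 and 51, dropping the filter 6, 6 and 0, the threshold of 0.01 gave 50, 43 and 7, and dropping the trend 75 lower. Without 1 library they ranged from 47 to 220, 34 to 139 and 13 to 81, lowest without DRB replicate 1. With the replicate block 171 were called, 44 of them lower, and the block called 0 of the 10 genes. Deviations of same-numbered libraries correlated at r of -0.051 to 0.053, and those of differently numbered ones at -0.089 to 0.121. Deviations centred within 3 libraries cannot decide whether libraries were paired, and the labels do not say.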
